A study of Mus musculus with 12 samples.

Results

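The 7 genes described here handle inorganic phosphate and pyrophosphate around mineralizing cells: Alpl, Phospho1, Enpp1, Ank, Nt5e, Slc20a1 and Slc20a2. They were taken by gene symbol, without regard to their values, and all 7 were found once each among the 39032 genes of the deposited expression table. The cells were MC3T3-E1 subclone 14, a line of mouse pre-osteoblasts derived from a single clone and of wild-type genotype, so the arms differ by added protein alone and not by donor. All 12 libraries came from cells kept in osteogenic medium for 5 days, with 10% serum, an ascorbic acid phosphate salt at 50 µg/mL and β-glycerophosphate, an organic phosphate donor, at 5 mM. There were 4 arms of 3 independent biological replicates: vehicle alone (Control); 200 ng/ml of RSPO2, recombinant R-spondin 2, a secreted protein that strengthens Wnt signalling; 100 ng/ml of BMP2, recombinant bone morphogenetic protein 2; and the 2 proteins together at those doses (BMP2+RSPO2). Expression is given as FPKM, fragment counts corrected for how long the transcript is and for how many fragments the library mapped, so levels can be compared between genes. The series asks which programs the proteins control singly and together.

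Bone mineral grows when free phosphate is plentiful and pyrophosphate, which coats the growing crystal and stops it, is removed. Tissue-nonspecific alkaline phosphatase, made from Alpl, splits pyrophosphate into phosphate, while the ectoenzyme ENPP1 produces pyrophosphate from extracellular ATP and the membrane protein ANK supports the release of ATP and pyrophosphate from the cell. PHOSPHO1 frees phosphate from phosphocholine inside matrix vesicles, NT5E (CD73) turns AMP into adenosine and phosphate outside the cell, and SLC20A1 and SLC20A2 (PiT-1 and PiT-2) carry phosphate inward with sodium.

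Some features of the libraries touch these genes. The first BMP2+RSPO2 replicate stood apart: its FPKM values summed to 635139, against 322074 to 380507 in the other 11 libraries, and short RNA polymerase III transcripts made up 19.1% of that sum, against 0.18% to 2.3%. In addition, the first replicate of every arm had a higher median FPKM of proliferation genes (56.9, 55.3, 46.1 and 28.9 in Control, RSPO2, BMP2 and BMP2+RSPO2) than the other replicates, where it lay between 8.36 and 22.3. Each member is therefore also given with replicates 2 and 3 alone, a choice made with earlier results of these data known, and the part of either feature in the results was not tested. All 8 osteoblast markers found in the table were expressed, at a summed FPKM of 9589 to 40516. Of the marker lists of other cell types, Acan, Col9a1 and Matn1 (cartilage), Plin1 (fat) and Ptprc, Adgre1 and Itgam (macrophages) were listed at 0 in every library. The rest of those lists was not silent. The 7 cartilage markers summed to 7.18 to 12.7 FPKM in Control, 3.89 to 4.59 in RSPO2, 22.0 to 45.3 in BMP2 and 13.6 to 26.5 in BMP2+RSPO2. Among them the cartilage collagen Col2a1 rose with BMP2 (log2 change 2.47, limma adjusted p = 0.0161) and with BMP2+RSPO2 (1.46, adjusted p = 0.0282). Sox9, of the same list, had mean FPKM of 5.49 in Control, 7.38 in BMP2 and 5.09 in BMP2+RSPO2. In the same order the means were 0.0233, 0.7 and 3.12 for Col10a1, and 0.383, 0.983 and 0.683 for Comp. The 6 fat markers summed to at most 4.35 FPKM, nearly all of it Cebpa, and were lowest in BMP2+RSPO2 (0.98 to 1.39). The 5 macrophage markers reached 1.41 FPKM in Control and 4.35 in BMP2+RSPO2, the latter mostly Cd68 (0.59, 4.0 and 4.0 in replicates 1, 2 and 3). The 4 endothelial markers reached 0.18 FPKM in Control. In BMP2+RSPO2 their sum ranged from 0.02 to 5.35, the highest being the first replicate (Cdh5 3.89, Pecam1 1.38). The part of these other markers in the results was not tested. In bulk RNA, fewer cells making a transcript and less transcript per cell cannot be told apart.

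Alpl rose and Nt5e fell with BMP2, and with BMP2+RSPO2 Alpl rose while Nt5e and Slc20a2 fell from Control. Enpp1, Ank and Slc20a1 were highest in replicates 2 and 3 of BMP2+RSPO2 but were not called in the fit to all 12 libraries. Called here means an adjusted p under 0.05 in limma on log2(FPKM + 1), with Benjamini-Hochberg adjustment over the 11548 genes tested. All 7 genes entered the test, but Enpp1 reached the minimum level only through BMP2 and BMP2+RSPO2, so that its calls are a description and support nothing. RSPO2 against Control called 0 of the 7, where 0.0779% of all genes were called. An unadjusted p under 0.05 was reached there by 0 of the 7 and by 418 of the 11548 genes. BMP2 against Control called 2 of 7, Alpl and Nt5e, where 1.52% of all genes were called. BMP2+RSPO2 against Control called 3 of 7, Alpl up with Nt5e and Slc20a2 down, and the same 3 were called against RSPO2. Those 3 of 7 stand beside 23% and 26.1% of all genes called in these comparisons. BMP2+RSPO2 against BMP2 called 0 of 7, where 4.38% of all genes were called. An unadjusted p under 0.05 was reached there by 2 of 7 and by 2948 of the 11548 genes. The interaction (how much larger the log2 change by RSPO2 was with BMP2 than without it) called 0 of 7. It called 0.294% of all genes. An unadjusted p under 0.05 was reached there by 1 of 7 and by 1504 of the 11548 genes. With replicates 2 and 3 alone, limma called 0, 4, 6, 4, 5 and 3 of the 7 in these comparisons in the order Control-based RSPO2, BMP2 and BMP2+RSPO2, then BMP2+RSPO2 against BMP2, against RSPO2, and the interaction. Without Enpp1 these counts were 0, 3, 5, 3, 4 and 2 of 6. The shares of all genes called then were 1.72%, 8.64%, 35.8%, 22.5%, 38.3% and 9.89%. The values of 2 arms did not overlap for 0, 3, 3, 3 and 4 of the 7 in the 5 comparisons of arms, where 9.33%, 20.8%, 44%, 33.6% and 42.3% of all genes did not overlap. Comparisons that share an arm share its libraries.

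**Figure D1:**
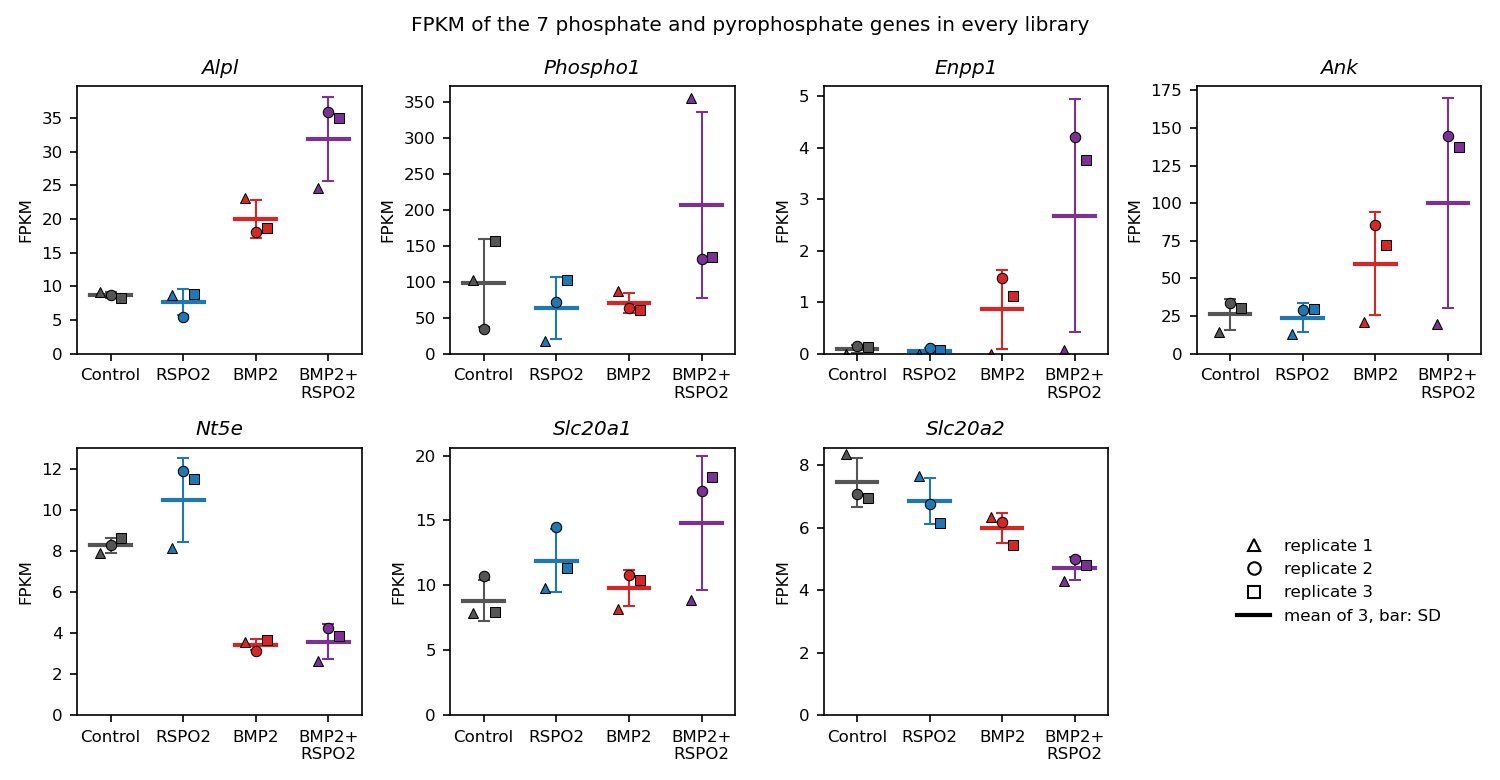
FPKM (linear axis from 0, a separate scale for each gene) of the 7 genes in each library of the 4 arms; triangles, circles and squares are replicates 1, 2 and 3, the horizontal line is the mean of 3 and the bar its SD. Alpl lay at 18.00 or more in all BMP2 and BMP2+RSPO2 libraries and at 9.20 or less elsewhere, whereas the first replicate of Enpp1 and Ank was the lowest in every arm.

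The windows below, from 250 bases before to 50 bases after the transcript start, are shown for the genes that were higher with BMP2 in replicates 2 and 3 (Alpl, Enpp1, Ank) and for the gene that fell (Nt5e). For Alpl, which has 2 windows, the one whose transcript start is the 5′ end of the annotated gene is shown. They are RefSeq sequences on GRCm38.p6, read 5′ to 3′ on the gene's strand, and 6 of the 7 genes had an entry, the exception being Slc20a2. Capitals mark matches to letters bound by osteoblast transcription factors: TGTGGT or its reverse complement ACCACA (RUNX) and GGCGCC (BMP-activated SMADs, its own reverse complement). The windows were Alpl at chr4:137796335-137796634 (minus strand), Enpp1 at chr10:24712110-24712409 (minus strand), Ank at chr15:27466427-27466726 (plus strand) and Nt5e at chr9:88327359-88327658 (plus strand).
Alpl: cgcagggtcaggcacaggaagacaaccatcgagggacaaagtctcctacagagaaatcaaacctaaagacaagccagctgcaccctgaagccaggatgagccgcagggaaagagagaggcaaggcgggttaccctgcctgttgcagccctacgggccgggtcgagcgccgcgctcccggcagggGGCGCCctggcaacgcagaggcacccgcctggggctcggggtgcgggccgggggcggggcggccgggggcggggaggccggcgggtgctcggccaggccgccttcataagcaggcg
Enpp1: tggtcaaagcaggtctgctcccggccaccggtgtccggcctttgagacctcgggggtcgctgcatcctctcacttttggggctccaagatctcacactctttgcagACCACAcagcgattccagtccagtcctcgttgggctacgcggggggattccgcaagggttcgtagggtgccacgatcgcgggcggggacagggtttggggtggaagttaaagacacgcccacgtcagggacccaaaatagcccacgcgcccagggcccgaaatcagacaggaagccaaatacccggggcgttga
Ank: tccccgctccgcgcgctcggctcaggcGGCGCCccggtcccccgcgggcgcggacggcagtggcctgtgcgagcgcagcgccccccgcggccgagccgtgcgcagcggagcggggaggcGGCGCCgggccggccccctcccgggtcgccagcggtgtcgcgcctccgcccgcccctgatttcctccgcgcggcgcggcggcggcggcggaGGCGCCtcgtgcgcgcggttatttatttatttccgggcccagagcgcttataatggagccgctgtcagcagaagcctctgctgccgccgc
Nt5e: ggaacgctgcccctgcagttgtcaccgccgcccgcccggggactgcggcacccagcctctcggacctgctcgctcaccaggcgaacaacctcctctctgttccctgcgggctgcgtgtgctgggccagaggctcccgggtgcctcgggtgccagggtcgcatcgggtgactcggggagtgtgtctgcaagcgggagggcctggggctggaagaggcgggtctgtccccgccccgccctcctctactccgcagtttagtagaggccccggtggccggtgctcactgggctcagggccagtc
The Alpl window shown held GGCGCC once, with its first base at -66 from the start, and the Ank window held it 3 times, at -223, -131 and -40. ACCACA lay at -144 in the Enpp1 window. CTTTGAT and CTTTGAA (TCF/LEF) and TGACGTCA (CRE) were searched on both strands as well, and none of the 5 motifs was found in the Nt5e window. That window lay inside the annotated gene, which starts at 88327197, whereas the Alpl, Enpp1 and Ank windows spanned the 5′ end of their genes. Of the windows not shown, Phospho1 held CTTTGAT at -66 and GGCGCC at -52, and Slc20a1 held TGTGGT at -77. Alpl and Slc20a1 each have a second RefSeq window, at chr4:137766426-137766725 and chr2:129206846-129207145, and neither held any of the 5 motifs; the second Alpl window has a GC content of 54.3%. Over all 32851 RefSeq windows of the same length, GGCGCC occurred in 11.9%, TGTGGT in 16.8%, CTTTGAT in 3.73%, CTTTGAA in 5.14% and TGACGTCA in 1.79%. The Alpl, Enpp1, Ank and Nt5e windows had a GC content of 70%, 61.7%, 78% and 71%, above the 52.7% median of all windows. A match describes the letters and not a bound site.

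Alpl, the phosphatase that removes pyrophosphate, lies on the minus strand of chromosome 4 (GRCm38, 137741733 to 137796384). Its FPKM was 9.20, 8.64 and 8.30 in the Control replicates 1, 2 and 3, and 8.65, 5.45 and 8.83 in RSPO2. BMP2 gave 23.18, 18.00 and 18.68, and BMP2+RSPO2 gave 24.66, 35.85 and 35.04. The Control and RSPO2 arms overlapped, the BMP2 arm lay wholly above both, and every BMP2+RSPO2 library lay above every BMP2 library, with the first replicate closest. The mean rose from 8.71 ± 0.454 FPKM in Control to 20.0 ± 2.81 in BMP2 (SD, n = 3 each), a 2.29-fold difference of means and a log2 change of 1.1 (SE 0.19, limma adjusted p = 0.018). BMP2+RSPO2 reached 31.9 ± 6.24 FPKM (SD, n = 3), a log2 change of 1.74 from Control (SE 0.19, limma adjusted p = 0.000322). The BMP2 call was lost when any 1 of the 6 Control and BMP2 libraries was left out (adjusted p 0.0557 to 0.0738), while the change stayed between 0.99 and 1.17.

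For Alpl, the step from BMP2 to BMP2+RSPO2 was 1.6-fold of the means, a log2 change of 0.64 (SE 0.19) that was not called in limma (adjusted p = 0.0799). With the first BMP2+RSPO2 replicate left out the change was 0.81 and was called (adjusted p = 0.0352), as it was with median-of-ratios scaling (0.83, adjusted p = 0.041) and with quantile normalization (0.83, adjusted p = 0.0359). In replicates 2 and 3 alone it was 0.91 (SE 0.18, adjusted p = 0.0157), and the Alpl interaction rose from 0.83 (SE 0.27, adjusted p = 0.255) over all libraries to 1.16 (SE 0.25, adjusted p = 0.0387). RSPO2 without BMP2 gave a log2 change of -0.19 with a 95% interval of -0.62 to 0.23.

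Phospho1, the phosphocholine phosphatase of matrix vesicles, had the highest mean FPKM over 3 replicates of the 7 genes in every arm, with a wide spread within arms. In replicates 2 and 3 alone, the mean of Ank was above that of Phospho1 in BMP2 (79.0 and 62.2 FPKM) and BMP2+RSPO2 (141 and 133). Phospho1 read 102.88, 34.37 and 157.25 in Control, and 16.97, 71.65 and 102.08 in RSPO2. BMP2 gave 86.73, 64.08 and 60.33, and BMP2+RSPO2 gave 355.69, 131.57 and 134.47. The BMP2+RSPO2 libraries all lay above those of BMP2 and of RSPO2 but overlapped with Control, where the third replicate was above 2 of them. No comparison called Phospho1 in limma: the log2 change was 1.4 against BMP2 (SE 0.7, adjusted p = 0.234) and 1.15 against Control (SE 0.7, adjusted p = 0.244). Against RSPO2 it was 1.86 (SE 0.7, adjusted p = 0.0723), and it was called there only when the third RSPO2 replicate was left out (2.36, adjusted p = 0.0464). The 355.69 came from the library that stood apart, and with replicates 2 and 3 alone the fold of means from BMP2 to BMP2+RSPO2 was 2.14 instead of 2.94.

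The level of Phospho1 is uncertain for another reason. In the GENCODE M21 annotation of GRCm38, 1818 of its 2029 exonic bases on chromosome 11 (95824499 to 95832140, plus strand) are also exonic in Zfp652, a zinc-finger gene on the same strand, and 1708 are exonic in Abi3 on the opposite strand. The table uses gene models of the C57BL/6NJ strain, which were not compared here, and how shared fragments were split is not given in the sources used here. Over the 12 libraries Zfp652 was the tested gene whose profile was most like that of Phospho1, with a root mean square difference of 0.49 in centred log2(FPKM + 1), where the centred profile of Phospho1 itself had a root mean square of 1.047. Zfp652 read 10.27, 9.67 and 22.07 FPKM in Control and 39.47, 28.01 and 27.29 in BMP2+RSPO2. The ratio of Phospho1 to Zfp652 ranged from 3.29 to 10.0 over the libraries. Abi3 stayed at 2.48 FPKM or less.

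Enpp1, the enzyme that makes pyrophosphate, had the lowest mean of the 7 genes in every arm, and it is on the minus strand of chromosome 10 (GRCm38, 24637914 to 24712159). Control gave 0, 0.14 and 0.13 FPKM and RSPO2 gave 0, 0.11 and 0.06. With BMP2 the values were 0, 1.47 and 1.11, and with BMP2+RSPO2 they were 0.07, 4.20 and 3.76. Replicates 2 and 3 of BMP2+RSPO2 were the highest of the 12 libraries and those of BMP2 came next, whereas the first replicate was listed at 0 in 3 arms and at 0.07 in the other, so that all arms overlapped. Enpp1 was not called in the limma fit to all 12 libraries, with a log2 change of 1.45 from Control to BMP2+RSPO2 (SE 0.54, adjusted p = 0.0731) and 0.67 to BMP2 (SE 0.54, adjusted p = 0.852).

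In replicates 2 and 3 alone, the Enpp1 means were 0.135 FPKM in Control, 0.085 in RSPO2, 1.29 in BMP2 and 3.98 in BMP2+RSPO2. On the log2(FPKM + 1) scale, which understates the change of so low a gene, this was a change of 1.01 from Control with BMP2 and 2.13 with BMP2+RSPO2 (SE 0.13 each), 1.12 between those arms (SE 0.13) and 1.19 for the interaction (SE 0.18). No p-value is given for these, because only the libraries in which Enpp1 was high brought it into the test. Leaving out the first BMP2+RSPO2 replicate alone gave 2.19 against Control and 1.52 against BMP2 (SE 0.32 each).

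Ank, the membrane protein through which ATP and pyrophosphate leave the cell, was far more abundant than Enpp1, and its gene is on the plus strand of chromosome 15 (GRCm38, 27466677 to 27594909). It read 14.19, 33.64 and 30.22 FPKM in Control and 12.69, 28.75 and 29.84 in RSPO2. The BMP2 libraries held 20.79, 85.64 and 72.38, and the BMP2+RSPO2 libraries 19.71, 144.58 and 137.02. As for Enpp1, replicates 2 and 3 were ordered RSPO2 or Control lowest, then BMP2, then BMP2+RSPO2, with no overlap between the last 2 and the rest, and the first replicate was the lowest of its arm throughout. The mean of replicates 2 and 3 was 2.25 times the first replicate in Control, 2.31 times in RSPO2, 3.8 times in BMP2 and 7.14 times in BMP2+RSPO2.

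In the limma fit to all 12 libraries, with equal weights and no replicate block, Ank was called in no comparison, and its log2 change from Control was 1.03 with BMP2 (95% interval -0.68 to 2.73, adjusted p = 0.824) and 1.55 with BMP2+RSPO2 (-0.15 to 3.26, adjusted p = 0.162). In replicates 2 and 3 alone, Ank rose by 1.28 with BMP2 (SE 0.1, adjusted p = 0.00123) and by 2.11 with BMP2+RSPO2 (SE 0.1, adjusted p = 8.3e-05). The difference between those arms was 0.83 (SE 0.1, adjusted p = 0.00302), and the interaction was 0.95 (SE 0.14, adjusted p = 0.0127). This subset leaves out the lowest Ank library of each arm, which narrows the spread, so these p-values are a description. Without the first BMP2+RSPO2 replicate, the change against Control was 2.48 (adjusted p = 0.0171).

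**Figure D2:**
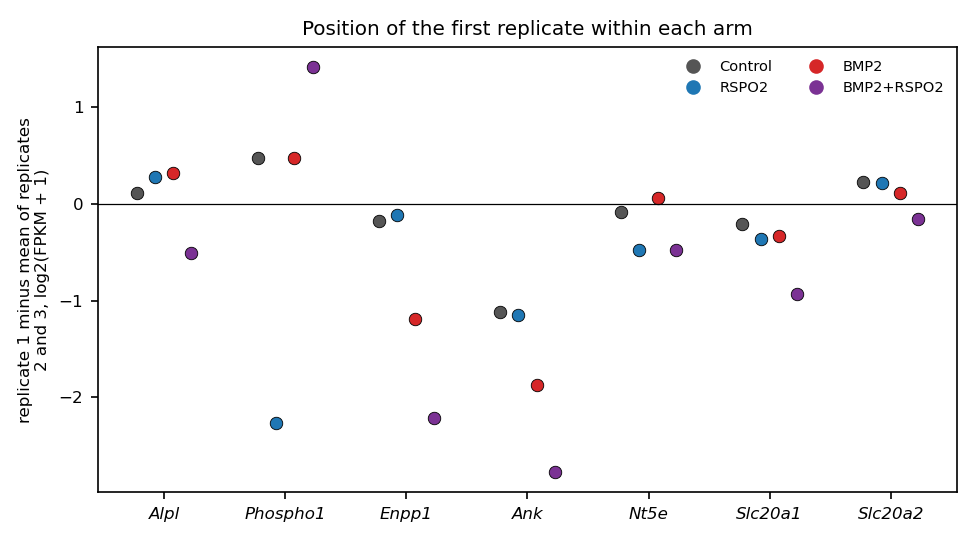
For each gene and arm, log2(FPKM + 1) of the first replicate minus the mean of replicates 2 and 3 on that scale; colours are the 4 arms and 0 means no difference. Enpp1, Ank and Slc20a1 lay below 0 in all 4 arms and lowest in BMP2+RSPO2, while Phospho1 lay on both sides of 0 and Slc20a2 stayed close to it.

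Nt5e, which makes adenosine and phosphate from AMP, fell with BMP2 whether or not RSPO2 was present, and lies on the plus strand of chromosome 9 (GRCm38, 88327197 to 88372092). Its FPKM was 7.92, 8.28 and 8.64 in Control and 8.14, 11.89 and 11.50 in RSPO2. It was 3.55, 3.11 and 3.66 in BMP2, and 2.63, 4.24 and 3.87 in BMP2+RSPO2. Every library with BMP2 lay below every library without it, and the 2 arms with BMP2 overlapped each other, as did the 2 arms without it. From a mean of 8.28 ± 0.36 FPKM in Control (SD, n = 3) it fell to 3.44 ± 0.291 in BMP2 (SD, n = 3), a log2 change of -1.06 (SE 0.17, limma adjusted p = 0.0109) that lost its call only without the second BMP2 replicate (-1.01, adjusted p = 0.0575). BMP2+RSPO2 was lower than Control by a log2 change of -1.04 (SE 0.17, limma adjusted p = 0.00233) and than RSPO2 by -1.33 (SE 0.17, limma adjusted p = 0.000445).

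Between BMP2+RSPO2 and BMP2 the Nt5e change was 0.03, with a 95% interval of -0.34 to 0.4 and an adjusted p of 0.919 in limma, so a difference of up to that size is not excluded by these libraries. RSPO2 alone gave 0.29 over Control (95% interval -0.07 to 0.66, adjusted p = 1), and 0.42 in replicates 2 and 3 (0.21 to 0.64, adjusted p = 0.0884), neither of which was called.

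The 2 phosphate importers differed. Slc20a1 (PiT-1, chromosome 2, GRCm38, 129198764 to 129211616, plus strand) read 7.87, 10.69 and 7.93 FPKM in Control and 9.76, 14.50 and 11.34 in RSPO2. It read 8.21, 10.76 and 10.40 in BMP2, and 8.89, 17.27 and 18.39 in BMP2+RSPO2. Replicates 2 and 3 of BMP2+RSPO2 were the 2 highest libraries, but the first replicate fell among the Control values and all arms overlapped. The log2 change from Control to BMP2+RSPO2 was 0.64 (SE 0.25) and was not called in limma (adjusted p = 0.0877). The change was not called with quantile normalization either (0.85, adjusted p = 0.0594). It was called without the first BMP2+RSPO2 replicate (0.95, adjusted p = 0.00613), with median-of-ratios scaling (0.88, adjusted p = 0.0466) and in replicates 2 and 3 alone (0.88, SE 0.16, adjusted p = 0.00653). In the latter, BMP2+RSPO2 also exceeded BMP2 by 0.7 (SE 0.16, adjusted p = 0.0228), while the interaction of 0.26 was not called (SE 0.22, adjusted p = 0.488).

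Slc20a2 (PiT-2, chromosome 8, GRCm38, 22476788 to 22569612, plus strand) had the narrowest spread of the 7 over the libraries. Control gave 8.37, 7.08 and 6.94 FPKM and RSPO2 gave 7.65, 6.76 and 6.16. BMP2 gave 6.35, 6.17 and 5.46, and BMP2+RSPO2 gave 4.30, 4.99 and 4.81. Each BMP2+RSPO2 library was lower than all libraries of the other arms, and BMP2 lay below Control without overlap. The mean fell from 7.46 ± 0.788 in Control to 4.7 ± 0.358 FPKM in BMP2+RSPO2 (SD, n = 3 each), a log2 change of -0.57 (SE 0.11, limma adjusted p = 0.00685). The median of all tested genes also moved in this comparison, by -0.26, and of the called genes 421 rose and 2235 fell. After median-of-ratios scaling, which brought that median to -0.04 and the split to 764 rises and 874 falls, Slc20a2 fell by 0.35 (adjusted p = 0.0346). The fall against RSPO2 (-0.46, SE 0.11, limma adjusted p = 0.0153) lost its call under that scaling (-0.22, adjusted p = 0.14), under quantile normalization (-0.24, adjusted p = 0.158), in a fit to only those 2 arms (-0.46, adjusted p = 0.0805) and without the first RSPO2 replicate (-0.39, adjusted p = 0.0584). BMP2 alone gave -0.27 from Control (SE 0.11), which was not called in limma (adjusted p = 0.437).

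**Figure D3:**
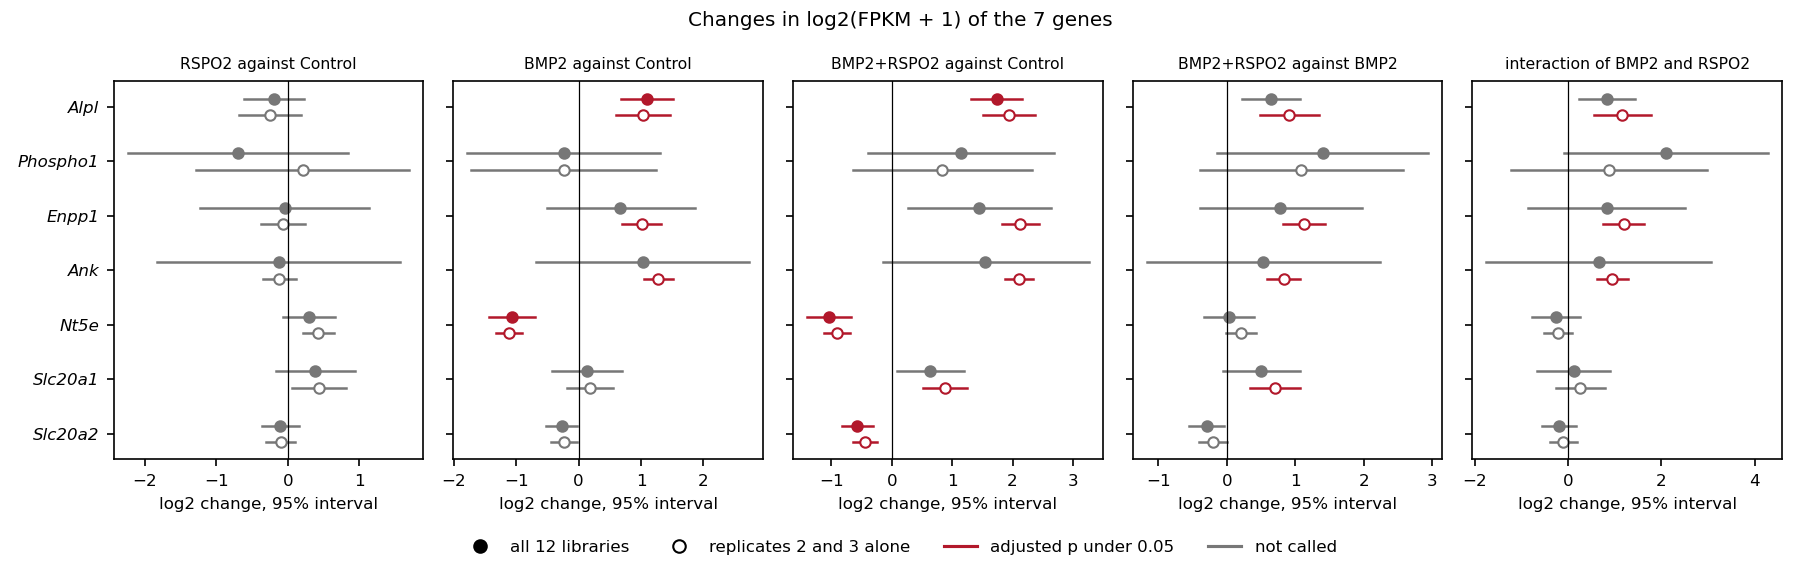
Log2 change of the 7 genes with its 95% interval from limma in 5 comparisons; filled points use all 12 libraries, open points replicates 2 and 3 alone, and red marks an adjusted p under 0.05. The intervals of Ank and Enpp1 are narrower in the open points than in the filled ones, RSPO2 against Control has no call in either fit, and the red points of Enpp1 are a description, since it entered the test only through the arms where it was high. The open points are a description for all genes, since the replicates were chosen with earlier results known.

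Across the 7 genes, the order of the means over 3 replicates was the same at the top and bottom in every arm but not in the middle. Phospho1 and Ank had the highest mean FPKM and Enpp1 the lowest in all 4 arms. With replicates 2 and 3 alone, Ank stood above Phospho1 in BMP2 and in BMP2+RSPO2. In Control, Slc20a1, Alpl, Nt5e and Slc20a2 had means of 8.83, 8.71, 8.28 and 7.46 FPKM, and their ranges over replicates all overlapped each other. In BMP2+RSPO2 the same 4 genes were spread out, with Alpl at 31.9, Slc20a1 at 14.8, Slc20a2 at 4.7 and Nt5e at 3.58 FPKM. Neighbours in that order did not overlap, but Slc20a2 and Nt5e came close, at 4.30 or more and 4.24 or less. No test between genes was made.

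Ratios within a library, which do not depend on its overall scale, are given as a description with no test. The ratio of Slc20a1 to Slc20a2 FPKM was 0.94, 1.51 and 1.14 in Control and 1.28, 2.14 and 1.84 in RSPO2. It was 1.29, 1.74 and 1.9 in BMP2, and 2.07, 3.46 and 3.82 in BMP2+RSPO2. The BMP2+RSPO2 ratios lay above all those of Control and BMP2, the first replicate included, and 1 of them lay below the second RSPO2 replicate. The ratio of Alpl to Enpp1, the enzymes that remove and make pyrophosphate, was 61.7 and 63.8 in replicates 2 and 3 of Control, 49.5 and 147 in RSPO2, 12.2 and 16.8 in BMP2, and 8.54 and 9.32 in BMP2+RSPO2. It could not be formed in the first replicates listed at 0 for Enpp1, and was 352 in the first BMP2+RSPO2 replicate. In replicates 2 and 3 the ratio was thus lower with BMP2 although Alpl itself was higher. Without BMP2 it rests on Enpp1 values of 0.06 to 0.14 FPKM, rounded to 2 decimals, so its size there is uncertain. The ratio of Alpl to Nt5e, chosen after the values were seen, was 0.458 to 1.16 in the 6 libraries without BMP2, 5.1 to 6.53 in BMP2 and 8.46 to 9.38 in BMP2+RSPO2.

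The wider pathway was described with 62 other genes in 7 lists, of which 59 are in the table, 11 are listed at 0 in every library and 36 were tested. Among those listed at 0 were the kidney and gut phosphate transporters Slc34a1, Slc34a2 and Slc34a3. In limma, RSPO2 against Control and BMP2 against Control called 0 of the 36, where 0.0779% and 1.52% of all genes were called. In each, 6 of the 36 had an unadjusted p under 0.05, as had 418 and 1147 of the 11548 genes tested. BMP2+RSPO2 against Control called 16, of which 6 rose and 10 fell, and the median log2 change of the 36 was -0.14 beside -0.26 for all genes tested. With median-of-ratios scaling 8 rose and 6 fell, where 764 of all 11548 genes tested rose and 874 fell. BMP2+RSPO2 against BMP2 called 2, and against RSPO2 it called 17, with 5 rises and 12 falls. Against RSPO2 the rises and falls were 7 and 6 with median-of-ratios scaling, where 838 and 959 of all 11548 genes rose and fell. With quantile normalization they were 5 and 6, where 778 and 974 of all genes rose and fell. These 16, 2 and 17 of 36 stand beside 23%, 4.38% and 26.1% of all genes called.

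Of the genes that rose, Galnt3, the enzyme that protects the phosphate hormone FGF23 from cleavage, read 1.14, 1.69 and 1.4 FPKM in Control and 0.93, 1.73 and 1.7 in RSPO2. It read 2.14, 1.69 and 1.72 in BMP2 and 5.0, 5.29 and 5.76 in BMP2+RSPO2. The BMP2+RSPO2 libraries, the first included, lay apart from the other 9, and Galnt3 rose by 1.4 from Control (SE 0.16, adjusted p = 0.00039) and by 1.16 from BMP2 (SE 0.16, adjusted p = 0.00575) in limma. Smpd3, a neutral sphingomyelinase whose products include phosphocholine, rose by 1.85 from Control (SE 0.33, limma adjusted p = 0.0039), to 199.25, 284.67 and 272.56 FPKM from 43.07, 83.7 and 88.31, with 144.83 to 150.49 in BMP2. Panx3, a channel that releases ATP, rose by 0.9 from Control (SE 0.21, limma adjusted p = 0.0119) and by 1.9 from RSPO2 (adjusted p = 0.000179). Its values were 87.75, 124.46 and 141.32 FPKM in Control, 46.54, 54.65 and 73.25 in RSPO2, 205.35 to 250.28 in BMP2 and 187.0 to 233.84 in BMP2+RSPO2. Control, RSPO2 and the arms with BMP2 did not overlap, while BMP2 and BMP2+RSPO2 overlapped (log2 change -0.05, 95% interval -0.5 to 0.41). Entpd3, an ectonucleotidase that breaks down ATP, rose by 0.63 from Control (SE 0.15, limma adjusted p = 0.0128) and by 1.36 from RSPO2 (adjusted p = 0.000173), and its change from BMP2 was 0.09 (95% interval -0.23 to 0.42).

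The falls included Adk, which returns adenosine to AMP inside the cell, with 60.93, 39.15 and 44.54 FPKM in Control and 15.83, 26.73 and 22.23 in BMP2+RSPO2, a log2 change of -1.13 (SE 0.21, limma adjusted p = 0.00479). Anxa2, an annexin of matrix vesicles, fell by 0.96 from Control (adjusted p = 0.00114) and by 0.71 from BMP2 (adjusted p = 0.0215) in limma. Entpd6 and the ATP channel Panx1 fell from Control by 0.87 (adjusted p = 0.0015) and 0.89 (adjusted p = 0.00552). All 4 were lower in each BMP2+RSPO2 library than in any Control library, in a comparison where 44% of all genes did not overlap, and all 4 were also called with median-of-ratios scaling.

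Dmp1 and Fam20c, a matrix protein and the kinase that phosphorylates such proteins, were picked after their values were seen because their first replicates were low like those of Ank and Enpp1. Dmp1 read 0.16, 27.11 and 34.79 FPKM in Control and 21.35, 732.77 and 731.61 in BMP2+RSPO2, and Fam20c read 5.33, 11.8 and 9.34 and then 9.93, 26.37 and 26.62. Neither was called over 12 libraries in limma (4.44, adjusted p = 0.121 for Dmp1, and 1.1, adjusted p = 0.0899 for Fam20c). In replicates 2 and 3 alone the change from Control to BMP2+RSPO2 was 4.53 for Dmp1 and 1.26 for Fam20c, given with no test because the genes were picked for their low first replicates.

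**Figure D4:**
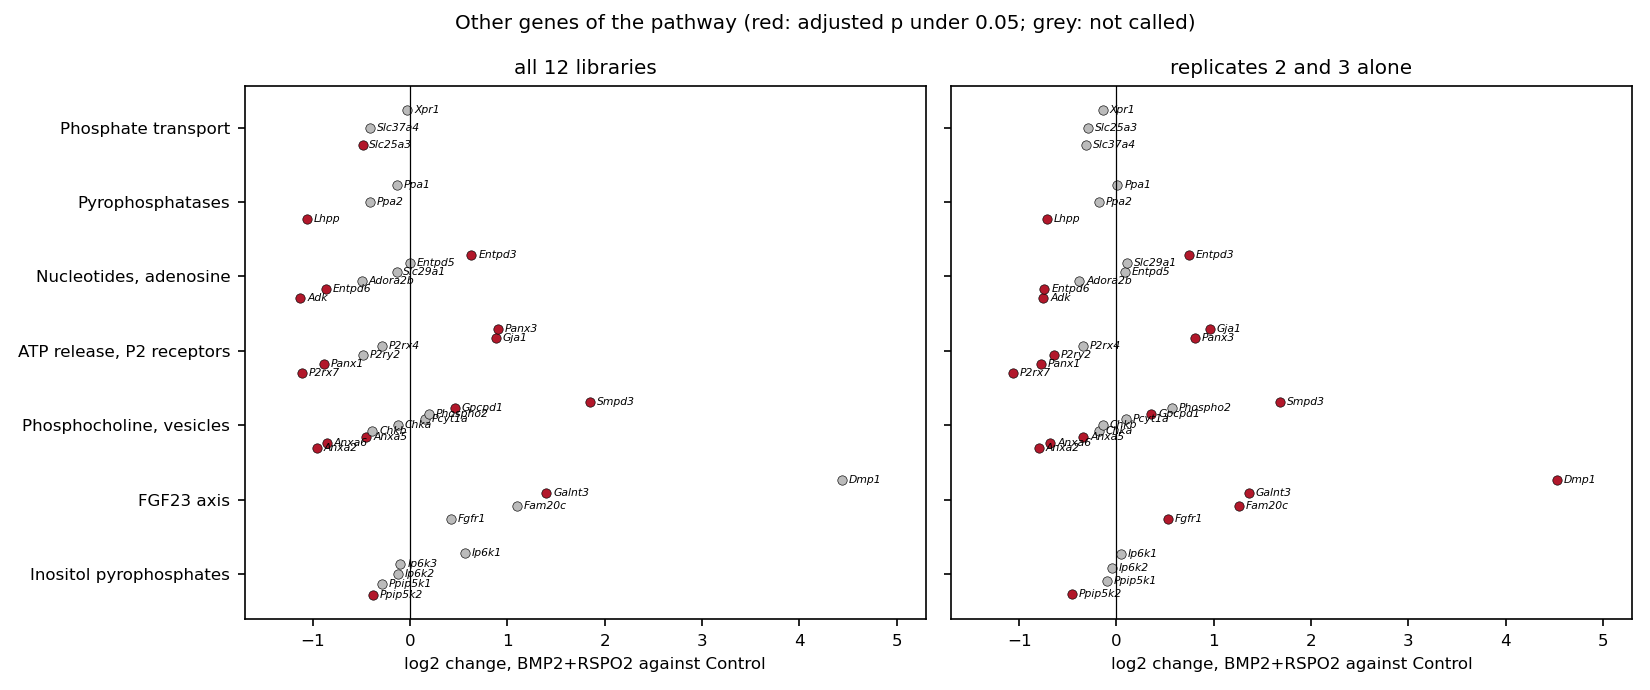
Log2 change from Control to BMP2+RSPO2 of the tested genes of the 7 pathway lists, with all 12 libraries (left) and replicates 2 and 3 alone (right); each point is a gene and red marks an adjusted p under 0.05 in limma. On the left 6 genes rose and 10 fell, where 421 and 2235 of all genes tested rose and fell (23% called). On the right, with 35 genes tested, 9 rose and 10 fell, where 848 and 3156 of all genes did (35.8% called). Dmp1 lay farthest from 0 in both. The 9 rises include Dmp1 and Fam20c, whose first replicates were low, so their red points are a description.

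The genes whose profiles over the 12 libraries were most like those of the called members were found among 9789 tested genes with a symbol, by the root mean square difference of centred log2(FPKM + 1). For Alpl they were Me2 (0.202), Rhpn2 (0.206) and Ell2 (0.223), for Nt5e Fam131a (0.16), Tgfb3 (0.183) and Slc1a4 (0.19), and for Slc20a2 Mrps35 (0.047), Scfd1 (0.058) and Cpsf3 (0.058). Ell2, an elongation factor of RNA polymerase II, had means of 3.23 ± 0.219, 2.58 ± 0.356, 8.48 ± 1.3 and 14.9 ± 1.93 FPKM in Control, RSPO2, BMP2 and BMP2+RSPO2 (SD, n = 3 each). Tgfb3, a growth factor of the TGF-β family, had 28.7 ± 3.48, 36.9 ± 5.16, 17.1 ± 1.87 and 16.0 ± 3.82 FPKM in the same order (SD, n = 3 each). Among the members not called, and so outside the rule, Enpp1 was closest to Col10a1, a collagen of hypertrophic cartilage (0.187). Col10a1 had means of 0.0233 ± 0.0252 FPKM in Control and 3.12 ± 2.53 in BMP2+RSPO2 (SD, n = 3 each).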

How the data were processed

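Per the labels' protocols, RNA of integrity number 7 or more went into stranded poly(A) libraries. The submitters' processing notes list cutadapt 1.10, FastQC 0.10.1, HISAT2 2.0, StringTie 1.3.4 and edgeR (no role given), with the builds GRCm38 and mm10. The table's identifiers are of the C57BL/6NJ strain, so coordinates come from GENCODE M21 and RefSeq by symbol. The authors deposited FPKM per gene and library, rounded to 2 decimals, and a p-value and q-value per gene with no stated comparison, which were not used. FPKM relate a gene to all mapped fragments, so an abundant RNA class lowers the other values of its library. Depth is unknown: low values showed no steps of whole reads (fullest bin of log ratios 2.08% to 4% of genes, 66 pairs of libraries), and no floor is given for a value of 0.

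Genes reaching 1 FPKM in 3 or more libraries (11548) were analysed as log2(FPKM + 1). One limma 3.58.1 model of the 4 arms (R 4.3.3, trended prior, no replicate block, 8 residual and 2.5 prior degrees of freedom) gave 6 comparisons, two-sided, with Benjamini-Hochberg adjustment in each; it was tested on simulated data. Replicates 2 and 3 alone were fitted likewise (11190 genes, 4 residual degrees of freedom). Alternatives were a pseudocount of 0.1, no filter, quantile normalization, median-of-ratios scaling, an untrended prior, library weights, a replicate block, only the compared arms, and each library left out. Members, lists, motifs and alternatives were chosen with earlier results of these data known. Named were the members, per comparison up to 6 called pathway genes by smallest p, and the 3 genes most like each called member; any other choice is stated as such.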

Additional observations from a re-analysis of the deposited data

How the results depend on the processing

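The 7 members and 6 comparisons were recomputed under each alternative. The counts of called members include Enpp1 wherever it was called, and its calls are a description that supports nothing. Changing the pseudocount to 0.1, removing the filter, using a prior without trend or fitting only the compared arms moved no count of called members by over 1.5 times. Quantile normalization and median-of-ratios scaling each raised BMP2+RSPO2 against BMP2 from 0 to 1 called member (Alpl). Of all 11548 genes, 102 rose and 124 fell there with quantile normalization, and 129 rose and 129 fell with median-of-ratios scaling. Library weights called 5 members for BMP2 against Control, 6 for BMP2+RSPO2 against Control, 5 against BMP2, 5 against RSPO2 and 2 for the interaction, where 14.5%, 46.8%, 38.9%, 51.4% and 19.3% of all genes were called, and replicates 2 and 3 alone called 4, 6, 4, 5 and 3 members. The weights gave the first replicates 0.09 to 0.33 and the others 0.66 to 4.5. Over the 12 fits that each left out 1 library, called members ranged from 0 to 2 for BMP2 against Control, 3 to 6 for BMP2+RSPO2 against Control, 0 to 3 against BMP2 and 2 to 6 against RSPO2, where 0.573% to 3.51%, 13.9% to 24%, 0.521% to 6.21% and 16% to 26.6% of all genes were called. The high ends (6, 3 and 6) came without the first BMP2+RSPO2 replicate, and the 0 for BMP2 against Control without the second BMP2 replicate. The cause was not tested.

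Changes of direction concerned uncalled changes. With replicates 2 and 3 alone, Phospho1 went from -0.7 to 0.21 in RSPO2 against Control. Over the left-out libraries, RSPO2 against Control ranged from -0.5 to 0.25 for Ank, -1.32 to 0.05 for Phospho1 and -0.3 to 0 for Alpl, Phospho1 ranged from -0.86 to 0.22 in BMP2 against Control, Ank from -0.09 to 1.45 and Nt5e from -0.08 to 0.19 in BMP2+RSPO2 against BMP2, and the Slc20a1 interaction from -0.06 to 0.43.

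Libraries with the same replicate number deviated from their arm means together for number 1 (correlation over genes 0.161 to 0.631, over 0.1 in 6 of 6 pairs) and number 2 (0.246 to 0.408, 6 of 6), whereas number 3 passed 0.1 in 4 of 6 pairs (-0.124 to 0.311). Pairs of replicate 2 with replicate 3 from different arms ranged from -0.143 to 0.354, so agreement was not limited to a shared number. Pairs of replicate 1 with replicate 2 or 3 ranged from -0.453 to 0.15. Not every pair of the same number passed, so the samples were taken to share only a number. By that rule the main fit held no replicate block, although the first replicates deviated together. With the number as a replicate block, limma called 6 members for BMP2+RSPO2 against Control and 5 against RSPO2, where 33.7% and 36% of all genes were called. It added Ank (adjusted p = 0.00811 and 0.00517) and Enpp1 to both and Slc20a1 (adjusted p = 0.0188) to the first, and moved no other count. Enpp1 entered the test only through the arms where it was high, so its calls are a description. Precision is limited by 3 libraries per arm and unknown depth.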
